A study of Mus musculus with 6 samples.

Results

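The cytosolic ribosomal protein genes were examined in 3T3-L1 fibroblasts treated with extracellular vesicles (EVs), by subunit and gene by gene. The genes were taken by name: protein-coding genes whose mouse symbol starts with Rpl or Rps and a digit, plus Rplp0, Rplp1, Rplp2 and Rpsa, without the ribosomal S6 kinases, Rps19bp1, Rpl7l1, the ubiquitin fusion gene Rps27a, pseudogenes and mitochondrial ribosomal protein genes. The names gave 85 of the 23725 genes of the count table. Rps23rg1, a retroposed copy of Rps23 that is not a protein of the ribosome, carried such a name. After its values were seen it was set aside, and it is described at the end. This left 84 genes, 53 of the large and 31 of the small subunit. Rpl32l and Rpl37rt, by name copies of Rpl32 and Rpl37, were kept. Of these, Rpl32l passed as lower and Rpl37rt had too few counts to be tested.

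3T3-L1 is a mouse embryonic fibroblast line, and MLP29 is a clonal mouse liver progenitor line. Plates of 3T3-L1 cells were kept for 24 h with EVs of MLP29 cells, on average 20 µg of EV protein per plate (EV libraries 1, 2 and 4), or with a preparation made from medium that had never been on cells (control libraries 1, 2 and 3). No genetic change is named for any group, so that control and EV plates differed in the preparation added. Each EV plate had a preparation of its own, and EVs obtained by centrifugation can carry other material from the medium. The libraries were made from mRNA with a stranded kit, and the read counts per gene summed to between 508599 and 665465 per library.

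The cytosolic ribosome is built from a large 60S and a small 40S subunit, each a ribosomal RNA core covered with proteins that are, in most cases, encoded by a single gene. The small subunit binds the mRNA and reads its codons, and the large subunit joins the amino acids and carries the tunnel through which the new chain leaves. The mRNAs of these proteins begin with a run of C and T bases, the terminal oligopyrimidine (TOP) sequence, by which the mTOR pathway controls their translation and stability in growing cells such as fibroblasts.

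The start sequence is shown here because it is the feature for which this gene family is known and because the choice of genes did not use it. Promoter windows from RefSeq (GRCm38.p6, the assembly also named mm10; 250 bases before and 50 after the annotated start) were matched for 65 of the 84 genes. The 8 windows of 30 bases printed here run 5′ to 3′ from 15 bases before the start, with the first transcribed base at position 16, and the capitals mark the longest unbroken run of C and T. They are those of Rps18, with the lowest adjusted p among the family, Rpl37, with the largest change, and Rps25, with the smallest, next to 5 genes with a run of 10 bases or more.
Rps18, chr17:33955651-33955680 (minus strand): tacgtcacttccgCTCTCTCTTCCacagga
Rps6, chr4:86857353-86857382 (minus strand): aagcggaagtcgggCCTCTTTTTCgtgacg
Rps10, chr17:27635230-27635259 (minus strand): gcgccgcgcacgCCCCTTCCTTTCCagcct
Rpl15, chr14:18270972-18271001 (minus strand): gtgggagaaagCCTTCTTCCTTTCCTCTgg
Rpl35, chr2:39005117-39005146 (minus strand): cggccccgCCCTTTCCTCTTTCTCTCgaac
Rplp2, chr7:141447636-141447665 (plus strand): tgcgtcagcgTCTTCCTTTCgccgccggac
Rpl37, chr15:5116598-5116627 (plus strand): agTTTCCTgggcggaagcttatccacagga
Rps25, chr9:44407699-44407728 (plus strand): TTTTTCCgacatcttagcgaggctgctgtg

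The counts listed under the ribosomal protein genes were lower after EV treatment in both subunits. Of the 77 genes with enough counts to be tested, 70 passed as lower in the EV libraries and 0 as higher, against a background of 14.4% lower and 7.68% higher among the 5066 genes tested across the table (edgeR's quasi-likelihood test, adjusted p of 0.05 by the Benjamini-Hochberg method over all 5066). At an unadjusted p of 0.05, 74 were lower and 0 higher. The share of all genes at that unadjusted threshold is not given, here or for the lists below, so that such counts lack a background. The Wald test of DESeq2 gave 59 lower and 0 higher among the 75 genes to which it assigned an adjusted p. For all genes it gave 7.2% lower. The fitted value was below the control level in 77 of 77 with TMM factors, with DESeq2's size factors and with the total library size, where by TMM 48.8% of all tested genes lay below it. In 72 of the 77 the highest EV library was below the lowest control library in normalized CPM (counts scaled to a common library size with edgeR's TMM factors), a pattern that 21.5% of all tested genes showed. The median log2 fold change was -1.13, which is 45.6% of the control level, with quartiles of -1.38 and -0.87, and the median of all tested genes was 0.01 with quartiles of -0.49 and 0.26. The 70 genes made up 9.56% of all genes that passed as lower in this comparison, and among the other 4989 genes tested 13.3% passed as lower. With Rps23rg1 counted among the ribosomal protein genes, 1 gene passed as higher, Rps23rg1 itself. The study's own list of significant transcripts, made with DESeq2, holds none of the 70 genes.

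**Figure D1:**
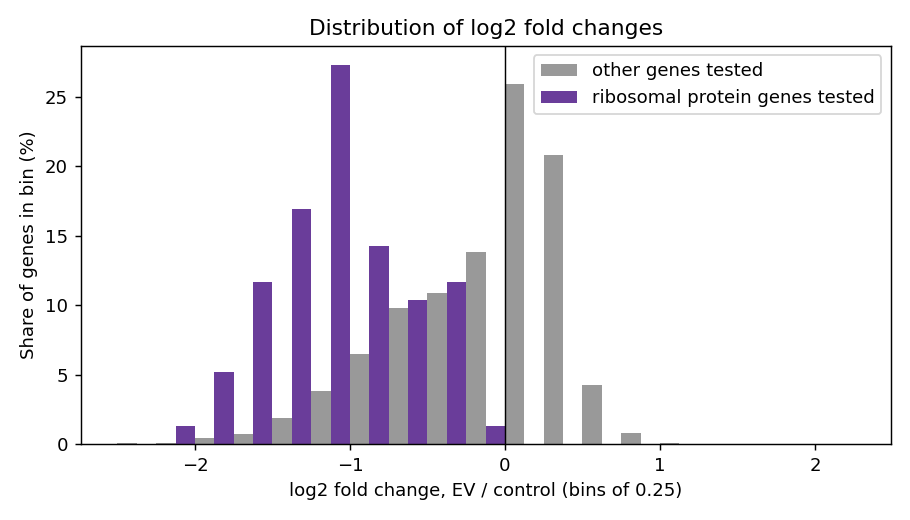
Distribution of the log2 fold change (EV over control, horizontal axis) as the percent of genes in each bin, for the ribosomal protein genes and for the other genes tested. The ribosomal protein genes lay between -2.20 and -0.21 with a median of -1.13, and the median of the other genes was 0.02.

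In each library the counts of the 84 genes were summed and set against the library total. The share was 1.26%, 1.5% and 1.2% in control libraries 1, 2 and 3 and 0.517%, 0.67% and 0.713% in EV libraries 1, 2 and 4, a mean of 1.32% ± 0.16 (SD, n = 3) against 0.633% ± 0.103 (SD, n = 3). The groups did not overlap, and control library 2 was the highest and EV library 1 the lowest of the 6. The large subunit took 0.829%, 0.993% and 0.796% of the control totals and 0.347%, 0.445% and 0.483% of the EV totals. The small subunit took 0.429%, 0.508% and 0.403% of the control totals and 0.17%, 0.225% and 0.231% of the EV totals. For both subunits the 3 EV libraries lay below the lowest control library. These are shares of RNA from whole plates, in which fewer cells of a kind and less RNA per cell cannot be told apart.

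**Figure D2:**
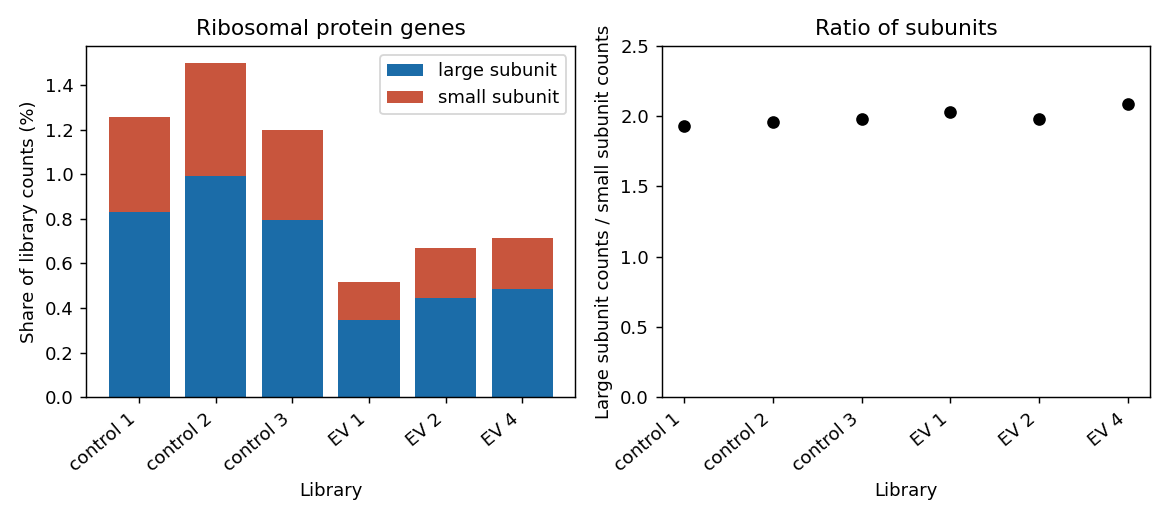
Left, percent of each library's counts listed under large and small subunit genes, as stacked bars for the 3 control and 3 EV libraries, and right, the ratio of large to small subunit counts in each library. The EV libraries lay between 0.347% and 0.483% for the large subunit, below the lowest control library at 0.796%, and between 0.17% and 0.231% for the small subunit, below the lowest control library at 0.403%.

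The subunits were then compared. Of the large subunit genes 43 of 46 tested passed as lower (93.5%), and of the small subunit genes 27 of 31 (87.1%). The median log2 fold change was -1.13 for the large subunit (quartiles -1.34 and -0.73) and -1.21 for the small subunit (quartiles -1.39 and -0.94). The difference of the medians, small minus large, was -0.08, while the genes of a subunit varied among themselves with an SD of 0.43 (large) and 0.42 (small). Leaving out control library 3 gave -0.18, leaving out control library 1 or 2 gave -0.03, and leaving out EV library 2 gave -0.05. A log2 fold change of -1 or lower was reached by 27 large and 21 small subunit genes, and by 7.94% of all genes tested. The ratio of large to small subunit counts was 1.93, 1.96 and 1.98 in controls and 2.03, 1.98 and 2.09 after EV treatment. On the log2 scale this was 0.97 ± 0.02 (SD, n = 3) against 1.02 ± 0.04 (SD, n = 3), a difference of 0.06 that turned to -0.03 when the median of the genes' log2 CPM was used in place of the sums. By the sums no EV library lay below a control library, though control library 3 and EV library 2 were both at 1.98 as a ratio. The difference was not tested, and its sign rests on how the genes are combined.

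**Figure D3:**
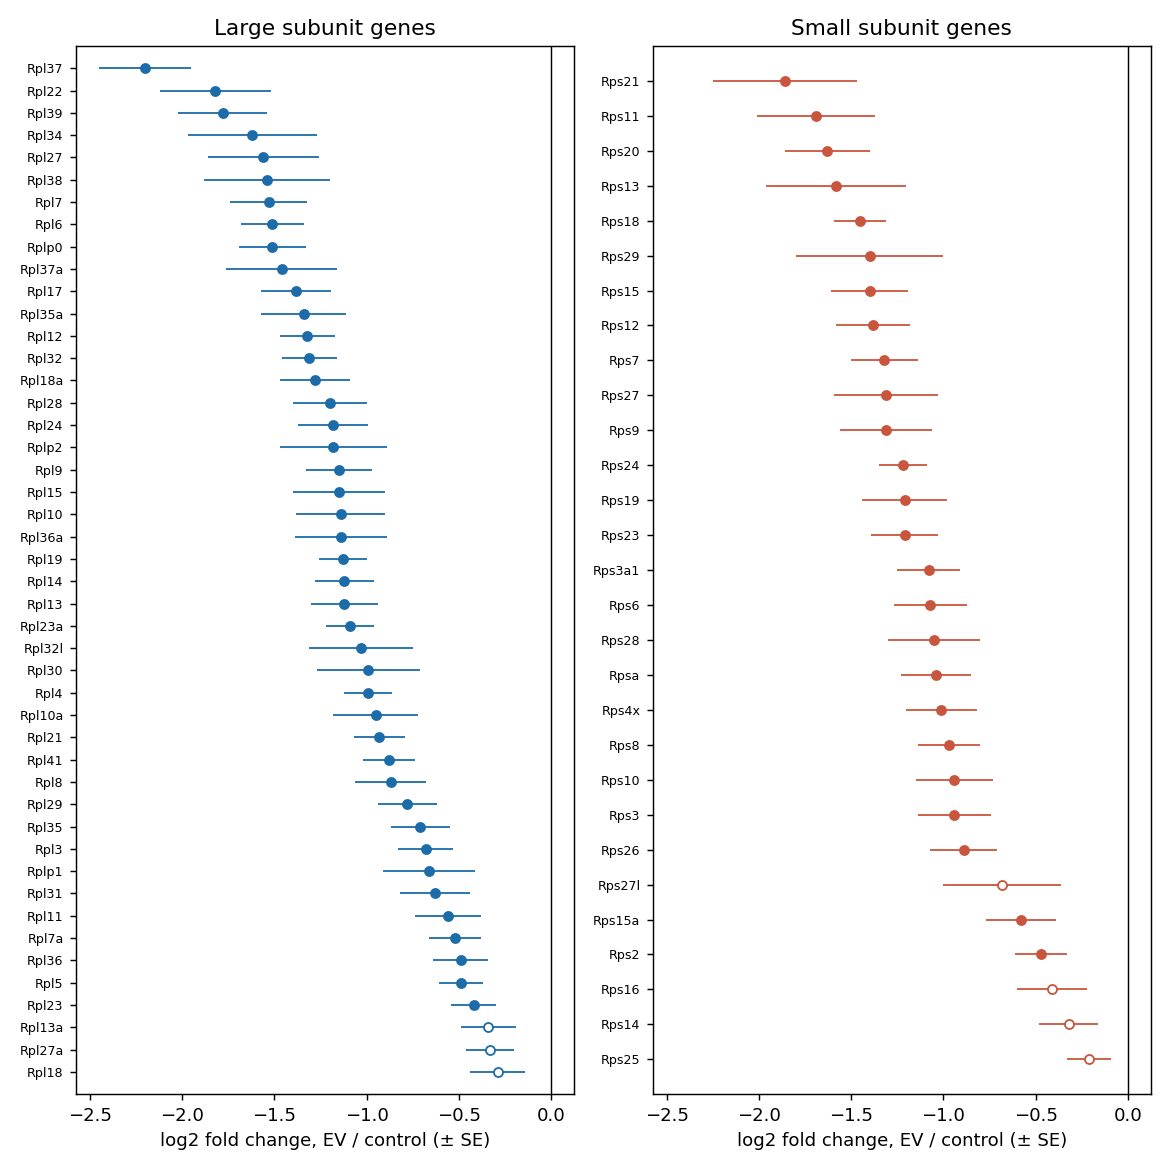
Log2 fold change (EV over control) of the ribosomal protein genes shown here, with standard errors, by subunit, with filled circles for genes past the adjusted p of 0.05 and open circles for the others. All points lie below 0, from -2.20 for Rpl37 to -0.21 for Rps25, and the medians of all tested genes of the subunits, -1.13 and -1.21, lie closer together than the genes within each.

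On the small subunit, Rps18 (Entrez 20084; chromosome 17, 33951998 to 33955665), a protein of the head of the subunit near the tRNA sites, was listed with 191, 243 and 205 counts in controls and with 50, 77 and 77 after EV treatment. All EV libraries were far below the lowest control, with 356 ± 37.6 normalized CPM in control and 130 ± 21.6 in EV libraries (SD, n = 3) and -1.45 as the log2 fold change (SE 0.14, adjusted p = 1.73e-11 in edgeR's quasi-likelihood test, where SE is the standard error). Rps24 (Entrez 20088; chromosome 14, 24490678 to 24496960), one of the ribosomal protein genes mutated in Diamond-Blackfan anaemia, was listed with 252, 344 and 275 counts in controls and with 82, 109 and 134 after EV treatment (log2 fold change -1.22, SE 0.13, adjusted p = 2.59e-10). It was the most counted small subunit gene in the control libraries, and again the groups did not overlap.

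Larger changes of the small subunit were seen in less counted genes. Rps21 (Entrez 66481; chromosome 2, 180257379 to 180258444) had 18, 24 and 26 counts in control and 1, 12 and 3 in EV libraries, which is a log2 change of -1.86 (SE 0.39, adjusted p = 0.000399). Rps20, a protein of the head of the subunit, had 46, 73 and 63 against 15, 17 and 19, a log2 change of -1.63 (SE 0.23, adjusted p = 3.11e-07). In both the EV libraries lay below the controls, but the EV counts of Rps21 ran from 1 to 12, and DESeq2 assigned Rps21 no adjusted p. Rps19, the gene most often mutated in Diamond-Blackfan anaemia, had 50, 70 and 56 against 9, 28 and 29 counts (log2 fold change -1.21, adjusted p = 0.000115). Rpsa, which is also known as the laminin receptor, had 64, 98 and 89 against 27, 40 and 39 (-1.04, adjusted p = 3.73e-05). Rps6, the substrate of the S6 kinases, had 71, 112 and 97 against 18, 49 and 49 (-1.07, adjusted p = 4.72e-05).

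On the large subunit, Rpl37 (Entrez 67281; chromosome 15, 5116613 to 5119140), a small zinc-binding protein, had the largest change of the family. Its counts were 61, 100 and 67 in controls and 6, 17 and 20 after EV treatment, or 127 ± 31.4 against 27.0 ± 13.1 normalized CPM (SD, n = 3). Every EV library was below the lowest control, with a fitted level at 21.8% of control (log2 fold change -2.20, SE 0.25, adjusted p = 9.02e-10). Rpl22 (Entrez 19934; chromosome 4, 152324436 to 152334082), an RNA-binding protein that the ribosome can do without, had 27, 46 and 34 counts against 9, 8 and 9 (log2 fold change -1.82, SE 0.30, adjusted p = 7.46e-06). Rpl39, at the wall of the exit tunnel, had 50, 87 and 62 counts against 10, 22 and 18 (log2 fold change -1.78, SE 0.24, adjusted p = 6.32e-08). These 3 genes and Rps21 were among the 5 largest changes of the ribosomal protein genes tested.

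Other large subunit genes combined high counts with a clear separation. Rpl6 had 129, 182 and 135 counts against 31, 47 and 58 (-1.51, adjusted p = 7.98e-10). Rpl32 had 181, 218 and 183 against 44, 70 and 90 (-1.31, adjusted p = 1.41e-09). Rpl19 had 214, 266 and 241 against 76, 105 and 105 (-1.13, adjusted p = 1.04e-09). In these 3 genes the highest EV library was far below the lowest control library. Rpl4 had 235, 347 and 293 against 88, 131 and 163 (-0.99, adjusted p = 5.1e-08), and Rpl23a, a protein at the mouth of the exit tunnel, had 246, 296 and 300 against 81, 119 and 144 (-1.09, adjusted p = 2.45e-09).

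By place in the ribosome, 4 of 4 proteins of the stalk, which recruits the translation factors, passed as lower, with a median log2 fold change of -1.25. Rplp0 (Entrez 11837; chromosome 5, 115559467 to 115563729), the stalk's base and a common reference gene in qPCR, was listed with 108, 180 and 132 counts in controls and with 22, 54 and 52 after EV treatment. Its EV libraries were all below the controls, at 80.4 ± 29.5 against 233 ± 52.0 normalized CPM (SD, n = 3), and it passed with -1.51 on the log2 scale (SE 0.18, adjusted p = 4.73e-09). Rpl12, which binds next to it, had 170, 230 and 190 counts against 44, 79 and 82 (-1.32, adjusted p = 7.98e-10). The acidic stalk proteins had different fitted values. Rplp2 had 28, 27 and 39 counts against 6, 14 and 16 (-1.18, adjusted p = 0.0026), and Rplp1 had 29, 58 and 35 against 16, 25 and 26 (-0.66, adjusted p = 0.0459). The call of Rplp1, and with it the count of 4 of 4, was not stable: in 8 of 14 alternatives it did not pass, among them DESeq2's size factors (adjusted p = 0.0521), the Wald test of DESeq2 (0.201), and the fits without control library 2 (0.384), EV library 1 (0.167), EV library 2 (0.0972) or EV library 4 (0.0642).

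Rpl5 and Rpl11, which form a particle with the 5S rRNA and can bind Mdm2 when ribosome assembly is disturbed, had smaller changes. Rpl5 had 229, 272 and 211 counts in control and 122, 167 and 153 in EV libraries (-0.49, adjusted p = 0.00317), with no overlap of the groups. Rpl11 had 60, 95 and 86 against 56, 43 and 43 (-0.56, adjusted p = 0.0224), and in normalized CPM its groups overlapped. Of the 8 proteins at the exit tunnel 7 were tested and 7 were lower, with a median of -1.09 and a range of -1.78 to -0.63. Of the 3 next to the peptidyl transferase centre, where peptide bonds form, 3 were lower. Rpl10 had 40, 56 and 56 counts against 9, 30 and 21 (log2 fold change -1.14), Rpl8 had 75, 109 and 78 against 30, 55 and 40 (-0.87), and Rpl3 had 126, 178 and 140 against 60, 98 and 83 (-0.68).

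On the small subunit, proteins at the entry and exit of the mRNA channel were lower as well. Rps2 had 160, 185 and 196 counts against 72, 148 and 121 (-0.47, adjusted p = 0.011), Rps3 had 70, 79 and 67 against 21, 45 and 32 (-0.94, adjusted p = 0.000445), Rps26 had 81, 97 and 91 against 31, 52 and 43 (-0.89, adjusted p = 0.000164), and Rps28 had 31, 55 and 50 against 9, 26 and 22 (-1.05, adjusted p = 0.00185). In these 4 genes the EV libraries did not overlap with the controls in normalized CPM. Of the 5 proteins listed for the decoding site and its surroundings 3 were lower, namely Rps18, Rps15 and Rps23. Rps15 had 63, 75 and 66 counts against 17, 22 and 28 (-1.40), and Rps23 had 89, 115 and 91 against 25, 47 and 39 (-1.21). The other 2, Rps16 and Rps14, did not pass.

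In all, 7 tested genes did not pass the threshold. Rps25 (Entrez 75617; chromosome 9, 44407714 to 44410406), known for a role in initiation at viral internal ribosome entry sites, was listed with 161, 198 and 208 counts in controls and with 129, 145 and 150 after EV treatment. Its EV libraries were below the controls in normalized CPM, 272 ± 16.1 against 315 ± 15.2 (SD, n = 3), but the log2 difference of -0.21 did not pass (SE 0.12, adjusted p = 0.2). Rpl18 had 96, 129 and 132 counts against 75, 93 and 86 (-0.29, SE 0.15, adjusted p = 0.142), and Rps14 had 93, 97 and 109 against 47, 88 and 74 (-0.32, SE 0.16, adjusted p = 0.141). The groups did not overlap in normalized CPM in these 3 genes. In 3 others they overlapped. Rpl27a had 160, 233 and 217 against 92, 174 and 157 (-0.33, adjusted p = 0.0653), Rpl13a had 148, 178 and 146 against 67, 151 and 107 (-0.34, adjusted p = 0.0823), and Rps16 had 46, 89 and 75 against 46, 46 and 45 (-0.41, adjusted p = 0.108). Rps27l, a p53-responsive paralog of Rps27, had 21, 24 and 18 against 6, 15 and 13 (-0.68, SE 0.32, adjusted p = 0.111). A difference of the size of the family's median was not reached by any of the 7, and a p that misses the threshold does not show that their levels did not differ.

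Some ribosomal proteins have a paralog that is used in particular tissues. Rpl10l, Rpl39l and Rpl36al were at 0 counts in all 6 libraries, which allows up to 3 counts in each, and so was Rpl26, a standard protein of the large subunit. Rpl37rt had 1 count, in EV library 2. The study lists the same Entrez identifier, 100502825, among its significantly lower transcripts, a call that 1 count could not give. The counts used here may thus differ from those behind the study's list. Rpl3l, the muscle form of Rpl3, had 3, 0 and 2 counts in control and 5, 2 and 1 in EV libraries, and Rpl22l1 had 6, 3 and 6 against 2, 2 and 2. These 7 genes had too few counts to be tested, and no difference was detectable with these counts. The 0 counts of Rpl26, beside a total of 1257 for Rpl4, may not measure the Rpl26 mRNA. Why Rpl26 had no counts was not tested. Their parent genes had counts enough: beside Rpl10, Rpl3, Rpl22, Rpl37 and Rpl39, Rpl36a had 35, 45 and 65 counts against 8, 23 and 26 (-1.14, adjusted p = 0.000791) and Rps27 had 33, 38 and 32 against 8, 15 and 13 (-1.31, adjusted p = 0.000476). Rps4x, on the X chromosome, had 67, 97 and 79 against 27, 46 and 32 (-1.01, adjusted p = 7.98e-05).

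Levels between genes were compared as normalized CPM per kilobase of exon. In the control libraries the median level was 86.0 for the large and 69.9 for the small subunit, with a range of 14.4 for Rpl34 to 553 for Rpl23a and of 13.8 for Rps13 to 216 for Rps3a1. Most of these proteins are present once in a ribosome, while the listed levels of their genes differed widely. The length used was that of all annotated exons of a gene together, and not that of an mRNA. It was 383 bases for Rpl36 and 6256 for Rps24, so that the spread and the order of the levels depend on it. Why the levels differed was not tested. In the EV libraries the medians were 43.2 and 26.7. The 5 highest levels were those of Rpl23a, Rpl36, Rpl19, Rpl32 and Rpl41. Rpl36 fell from 500.0 to 354 on this scale, with counts of 104, 121 and 119 against 52, 92 and 70 (log2 fold change -0.49, adjusted p = 0.0181), and it did not pass in 6 of 14 alternatives, among them the Wald test of DESeq2 (adjusted p = 0.0903) and the fits without control library 2 (0.0639), EV library 1 (0.158) or EV library 4 (0.0907). Rpl41, the smallest ribosomal protein, fell from 266 to 144, with 162, 206 and 191 counts against 60, 105 and 100 (log2 fold change -0.88, adjusted p = 3.44e-06).

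The change was set beside the level. Among the 26 genes with the lowest mean normalized CPM (20.1 to 75) the median log2 fold change was -1.33 and 25 were lower, among the 25 in the middle (76.8 to 149) it was -1.07 and 23 were lower, and among the 26 with the highest (153 to 364) it was -0.95 and 22 were lower. Across the 77 genes, which share the same 6 libraries, Spearman's rho between level and log2 fold change was 0.496, given as a description. That level includes the EV libraries, so that a larger fall lowers it. By the level in the control libraries alone rho was 0.41, and the medians were -1.33, -1.06 and -0.97 for the 26 lowest, 26 middle and 25 highest genes, although the control counts also enter the fold change. For exon length it was 0.1. Less counted genes also had larger errors, with a median standard error of 0.28 in the lowest group against 0.14 in the highest.

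**Figure D4:**
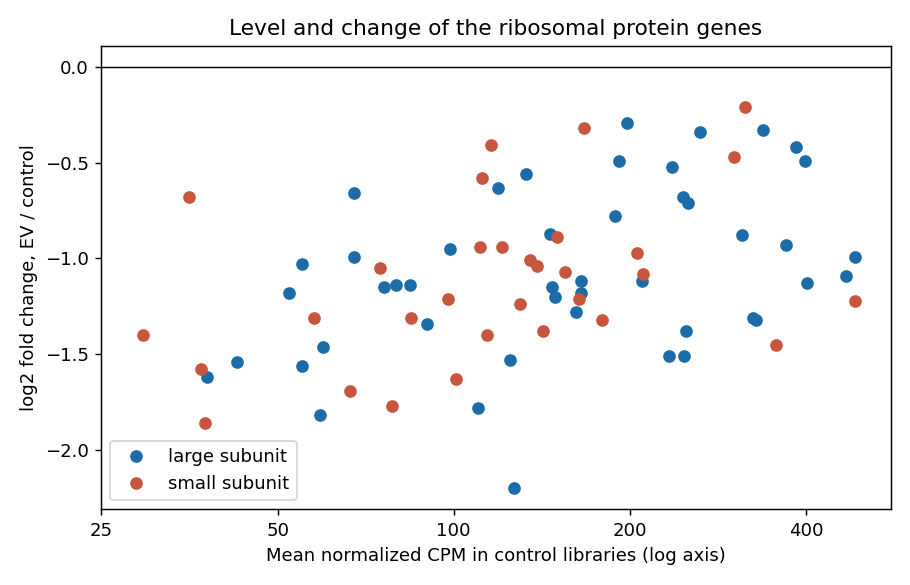
Mean normalized CPM in the control libraries (log axis) against the log2 fold change (EV over control) for each tested ribosomal protein gene, with the subunits in different colours. Genes with fewer counts lay lower on average, with medians of -1.33, -1.06 and -0.97 from the lowest to the highest control levels, and Spearman's rho was 0.41.

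At the annotated start, a run of at least 7 C or T within 15 bases of the start was found in 35 of the 65 matched genes (53.8%), against 21.3% of the 27025 genes in the promoter table. The letters CCGGAA or their reverse complement TTCCGG, the core of sites for Ets-type factors, were in the 300 bases of 34 (52.3%), against 16.7% of all genes. AAGATGG or CCATCTT was in 9 (13.8%, against 7.28%) and TATAAA or TTTATA in 8 (12.3%, against 15.7%). The change was of similar size with and without these letters, as 28 of the 33 tested genes with the run were lower with a median of -1.12, and 24 of the 25 without it with a median of -1.14. With CCGGAA or TTCCGG 28 of 32 were lower (median -1.10), and without them 24 of 26 (median -1.16). Of the windows printed above, those of Rps25 and Rpl37 held runs of 7 and 6 bases and those genes had the smallest and the largest change of the family. Both of these runs lay wholly before the annotated start. Genes with and without a run are therefore not the same as genes with and without a TOP sequence. A run is a description of the annotated sequence, and the start used in these cells was not measured.

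Other genes of the translation machinery were read from the same fit. Rack1, a scaffold on the small subunit, had 57, 89 and 71 against 20, 27 and 25 (-1.38, adjusted p = 1.06e-06). Fau and Rps27a, which encode small subunit proteins as fusions with a ubiquitin-like protein and with ubiquitin, were also lower, with -0.79 for Fau (adjusted p = 0.000462) and -0.61 for Rps27a (adjusted p = 0.00455).

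Listed genes whose mRNAs also carry a TOP sequence, translation factors besides Npm1, Hnrnpa1, Tpt1 and Nap1l1, were lower in 11 of 16 tested. The median of the list was -0.57. None passed as higher (0 of 16) in this fit, 1 was higher at an unadjusted p of 0.05, and DESeq2 called 7 lower and 0 higher. Leaving out control library 2 gave 6 lower, leaving out EV library 1 or EV library 4 gave 7, and 1 was then higher in the fit without EV library 4. Eef2, which moves the ribosome along the mRNA, had 190, 229 and 186 counts against 54, 82 and 98 (-1.17, adjusted p = 1.08e-08), and the poly(A)-binding protein gene Pabpc1 had a log2 fold change of -1.07 (adjusted p = 1.8e-07). Nap1l1 (-0.06, adjusted p = 0.751), Eef1b2 (-0.15, adjusted p = 0.535) and Eif4a2 (0.29, adjusted p = 0.101) did not pass. Among the mitochondrial ribosomal protein genes, 18 of the 78 in the table were tested, and 0 passed in either direction in edgeR's test. At an unadjusted p of 0.05, 2 were higher and 0 lower, and DESeq2 called 1 higher. Their median log2 fold change was 0.19, with a range of -0.54 to 0.60, and it was 0.05 when counts were scaled by total library size. Without the filter on low counts 77 of them could be tested, of which 1 was lower and 0 higher, and their median was -0.33, so that the sign of the median depended on the filter. The most counted of them, Mrps25, had 1509, 1646 and 1892 counts against 1640, 1778 and 1638 (0.21, SE 0.08, adjusted p = 0.0573). Rpl7l1, a nucleolar paralog of Rpl7 used in ribosome assembly, had 119, 128 and 139 counts against 105, 124 and 98 (-0.04, SE 0.14, adjusted p = 0.869), and of 5 ribosomal protein pseudogenes the 1 tested, Rpl31-ps12, was lower (-1.61, adjusted p = 0.00631).

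The counting bears on these values. For mRNAs known to be abundant in growing cells the counts were low: the most counted gene of the family was in place 485 of all genes by summed counts. The strand setting of the counting is not given in the sources used here, so that each value here is a count listed under a gene and may not measure its mRNA. In GENCODE vM21, 18 of the 84 genes have exons that overlap an exon on the opposite strand. Of 17 such genes tested 15 were lower, with a median of -0.99, and of 60 without an overlap 55 were lower, with a median of -1.14. The background differed as well, with 9.49% of overlapped and 19.9% of other tested genes lower. When the genes without an overlap were fitted alone, 49 of 60 were lower, 28 of 35 of the large and 21 of 25 of the small subunit. In that fit 316 of all 2584 genes tested were lower.

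The genes opposite them gave other values. Of the 10 that were tested, across from 8 ribosomal protein genes, 0 passed as lower and 3 as higher (at an unadjusted p of 0.05, 0 lower and 5 higher, and in DESeq2 0 and 3), and their median log2 fold change was 0.20. With the total library size the median was 0.07, and 3 were again higher. Nkiras1 shares 105 exon bases with Rpl15 and had 40.2 times its counts, with 1090, 1145 and 1355 counts in control and 1161, 1539 and 1312 in EV libraries (0.36, adjusted p = 0.00153), where Rpl15 had 46, 43 and 47 against 11, 18 and 24 (-1.15, adjusted p = 0.000476). Sphk2, opposite Rpl18 over 373 bases, had 251, 307 and 374 counts against 381, 493 and 372 (0.62, adjusted p = 1.03e-05). Fam69a, opposite Rpl5 over 953 bases, had 599, 623 and 757 counts against 655, 881 and 705 (0.38, adjusted p = 0.00199, or 0.0567 without control library 2). Cand2, opposite Rpl32 over 53 bases, had 13.1 times its counts and 0.10 on the log2 scale (adjusted p = 0.388), and Wdr38, opposite Rpl35 over 821 bases, 5.22 times its counts and 0.22 (adjusted p = 0.076). In the 10 pairs the ribosomal protein gene had the lower log2 fold change in 10, and the difference within a pair was not tested.

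**Figure D5:**
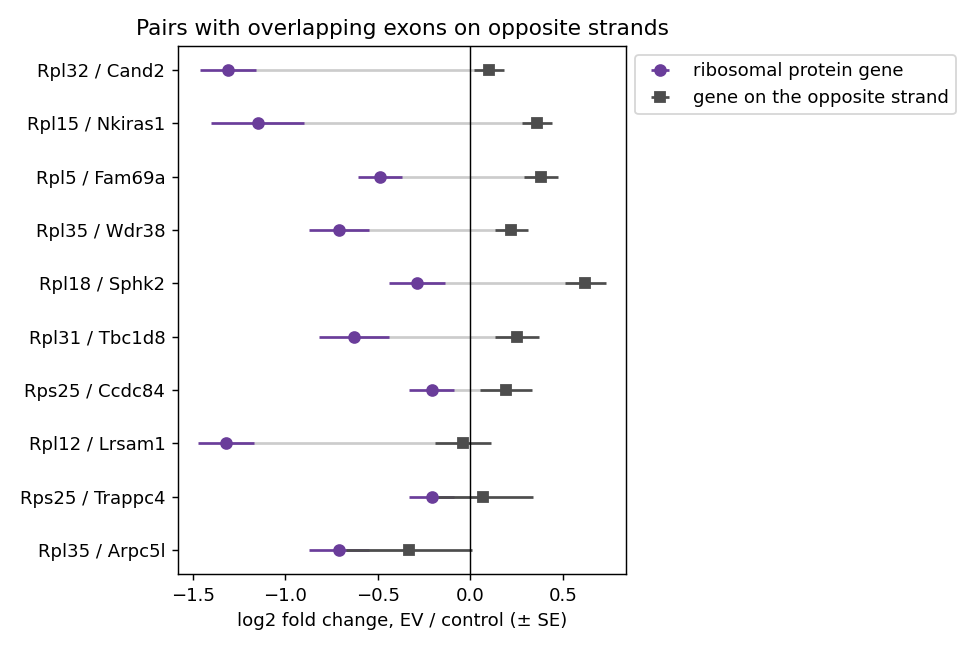
Log2 fold change (EV over control, with standard errors) of ribosomal protein genes and of the tested genes whose exons overlap them on the opposite strand, 1 pair per row. The ribosomal protein gene lay to the left in each of the 10 pairs, with a median of -0.67, and the opposite genes lay between -0.33 and 0.62 with a median of 0.20, or 0.07 with the total library size.

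Ribosomal protein genes have many processed pseudogenes, with which reads can be shared. The percent of a gene's 50-base stretches, the length of the reads, that also occur in transcripts of other genes ranged from 0 to 84.0% in Rpl35. Among tested genes at or under 24.4%, 34 of 39 were lower with a median of -1.15, and among those above it 36 of 38 with a median of -1.10. The values of Rpl35 (84.0%), Rpl36 (81.1%), Rpl23a (80.8%) and Rps3a1 (71.0%) are uncertain in this respect. Small nucleolar RNA genes lie inside 30 of the tested genes, of which 27 were lower (median -1.08), and 43 of the 47 others were lower (median -1.15).

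Rps23rg1 went the other way. Its counts were 7926, 8975 and 10495 in controls and 8715, 11636 and 10425 after EV treatment, which made it the gene in place 4 of the table and 1.47%, 1.47% and 1.58% of the control and 1.71%, 1.85% and 1.83% of the EV counts. The EV libraries were all above the controls in these shares, and it passed as higher with 0.37 on the log2 scale (SE 0.08, adjusted p = 0.000432). Except in control library 2, it held more counts than the 84 genes together. A pseudogene of Rps23, Rps23-ps2, lies over 396 of its exon bases on the opposite strand, so that the copy to which these reads belong is uncertain.

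Cell type markers were read beside these results. The 12 fibroblast markers were tested, and 8 of them were lower and 0 higher (also 0 higher at an unadjusted p of 0.05 and in DESeq2), with a median of -1.0. Among all genes tested 14.4% were lower. Col5a1 (-0.33), Thy1 (-0.54), Pdgfra (-0.16) and Pdgfrb (-0.70) did not pass. The counts of the 12 summed to between 1623 and 2099 in control and between 642 and 985 in EV libraries, so that the sum moved with the ribosomal protein genes. The part of these markers in the result was not tested. Of the 12 liver epithelial markers 9, among them Alb, Krt8, Krt18 and Epcam, were at 0 in every library, and the list summed to 10 to 13 counts in control and 11 to 13 in EV libraries. Of the 6 immune markers 3 were at 0, Ptprc, Adgre1 and Cd3e, and the list summed to 2 to 10 and 4 to 6 counts.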

How the data were processed

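Raw counts per gene, listed by Entrez identifier with 1 column per library, were deposited for 3 control and 3 EV libraries. For these files the authors ran FastQC on the reads, STAR for alignment to mm10 and Rsubread for counting. Versions, annotation, strand setting and handling of multi-mapping reads are not given in the sources used here. Symbols and positions were taken from RefSeq (GRCm38.p6), which gave 99.8% of identifiers a symbol, and exons from GENCODE vM21 (88.7% matched).

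The whole table was fitted in R 4.3.3 by the quasi-likelihood method of edgeR 4.0.16 (filterByExpr for low counts, TMM scaling, then glmQLFit and glmQLFTest), with the group as the only term. Adjustment was by Benjamini-Hochberg over 5066 genes at a threshold of 0.05. An SE was taken as the absolute log2 fold change over the root of F. Normalized CPM use the TMM factors. The fit was tested on simulated counts. Library totals of 508599 to 665465 limit the precision, and a gene at 3 counts or fewer in every library was given no fold change. The study's methods name a read number per library far above these totals. What became of the reads not listed under a gene is not given in the sources used here. Counting limits cover counting error only. Each plate had its own preparation, and replicates differed by more than sampling noise (chi-square per degree of freedom of 1.15 to 1.76).

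Genes named in the text were the 10 with the lowest adjusted p, the 5 largest and the 5 smallest changes, those that did not pass, Rplp0, Rplp1, Rplp2 and Rpsa, the 3 whose proteins the study lists (Rplp2, Rps19, Rpl23a), paralogs and their parents, genes at the floor and the 5 highest per kilobase. Others were added after their values were seen. Members and lists were chosen with earlier results of these data known. Alternatives were other scalings and filters, the Wald test of DESeq2 1.42.0, a replicate block, genes without opposite-strand overlap, each library left out, and, added after seeing the data, Rps23rg1 among the members and the level in the control libraries alone. Some single genes are not reported here.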

Additional observations from a re-analysis of the deposited data

How the results depend on the processing

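The number of ribosomal protein genes lower in EV libraries was 70 of 77 in the reported fit, 69 with DESeq2's size factors, 76 with the total library size, 70 with TMM factors computed without these genes, 70 with a mean of at least 10 counts, 61 of 80 with no filter and 59 with the Wald test of DESeq2. The total library size moved the median of all genes from 0.01 to -0.12 and the split of all calls from 732 lower and 389 higher to 970 and 90, and the median of the family was then -1.27. When single libraries were left out the number was between 61 and 71 (large subunit 36 to 44, small subunit 24 to 27), lowest without control library 2, and the family's median was between -1.21 and -0.91. Among genes without an opposite-strand overlap, fitted alone, 28 large subunit genes were lower, of 35 tested. The background moved with the fit. Over all genes, 316 of 2584 were lower in that fit, 492 of 15321 with no filter and 414 of 5221 without control library 2. The difference of the log2 ratio of large to small subunit counts, 0.06, was -0.03 with medians per gene and -1.09 with Rps23rg1 counted as a small subunit gene, and the number of genes higher was then 1, Rps23rg1 itself. The cause of the change to -0.03 was not tested. Calls over all genes, 1121, were 539 with DESeq2, 489 without control library 2 and 732 without control library 1. Single-gene values were compared for 32 tested genes, those chosen by the naming rules above without the genes added later. Of their 441 values under these alternatives, 415 kept their direction and side of the threshold, and 0 changed direction. Among the rest 14 no longer passed (Rplp1 and Rpl36), and 12 newly passed (among Rpl13a, Rpl18, Rpl27a, Rps14, Rps16 and Rps25). The other genes of the family are not in this count, and some of them lost their call, as with DESeq2's 59.

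With the replicate number as a replicate block 71 genes were lower (44 large, 27 small). The groups share only numbers 1 and 2, whose libraries' deviations correlated at 0.0714 and 0.0634, so that the numbers were not taken as pairs. Genes with few counts are limited by those counts: the median standard error was 0.28 in the lowest group by level and 0.14 in the highest.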
